A study of Homo sapiens with 6 samples.

Results

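The aminoacyl-tRNA synthetases join each amino acid to its tRNA, so that the ribosome receives the right residue at each codon. The 39 genes described here encode 20 subunits of the cytosolic synthetases, the 3 scaffold proteins AIMP1, AIMP2 and EEF1E1, and 16 mitochondrial synthetases. They were taken by symbol from a table of 19330 genes, in which the cytosolic enzymes carry older symbols without the final 1 of the current ones (SARS for SARS1) and the mitochondrial enzymes end in 2. The choice rests on function, and it was made with earlier results of these data known.

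Cytosolic and mitochondrial translation use separate sets of these enzymes, most of which are encoded by separate nuclear genes. In the cytosol, EPRS, IARS, LARS, MARS, QARS, RARS, KARS, DARS and the 3 scaffold proteins assemble into the multisynthetase complex. One of its subunits, EPRS, charges tRNAs with glutamate and with proline. GARS and KARS each serve both compartments from a single gene, and human mitochondria make glutaminyl-tRNA by another route, in which EARS2 loads glutamate and the QRSL1, GATB and GATC amidotransferase converts it. When amino acids run short, uncharged tRNA activates the kinase GCN2 (EIF2AK4), translation of the transcription factor ATF4 increases, and ATF4 raises the transcription of many cytosolic synthetase genes.

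RNA-Seq was performed on the human K562 line, which was established from a chronic myelogenous leukemia, in 3 sgCtrl and 3 sgN6AMT1 libraries. Both groups were infected with the lentivirus pLentiCRISPRv2, which expresses Cas9 and an sgRNA, against N6AMT1 in sgN6AMT1 and against control genes in sgCtrl (OR11A1 and OR2M49 in the labels), were selected with puromycin and were analysed 10 d after infection. They are therefore selected pools of cells and not clones, the sgCtrl cells also carry Cas9 and the virus, and the sources used here do not tie single sgRNAs to single libraries. N6AMT1 encodes the methyltransferase of the translation termination factor eRF1, and the comparison asks which transcripts differ after its depletion. The protocols describe total RNA from cleared lysates that was depleted of rRNA, while the molecule field of the labels says polyA RNA. The libraries held 742470 to 866894 counts in sgCtrl and 959319 to 5526904 in sgN6AMT1, where replicates 2 and 3 were the deep ones. The N6AMT1 transcript was thinly covered in sgCtrl (6, 5 and 9 counts) as well as in sgN6AMT1 (0, 18 and 16 counts). In TMM-normalized cpm, the counts scaled to the size of the library, it lay at 5.77 to 10.6 against 0 to 4.11, without overlap. The 0 of 959319 counts allow up to 3.13 cpm. All 10 K562 markers examined were detected, and the globin genes HBE1, HBG1 and HBG2 among them were called higher in sgN6AMT1. Of 9 markers of other cell types, 3 had enough counts to be tested (CD3D, COL1A2 and EPCAM), MS4A1 was at 0 in the 6 libraries, and EPCAM reached 98.2 to 170 cpm; the part of any such cells in the values below was not tested.

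Promoter sequences are shown because the amino acid response is the pathway known to raise many cytosolic synthetase genes together, and ATF4 acts in it through a DNA element that some of these promoters carry. The letters TGATGNAA, the core of this C/EBP-ATF response element, were searched on both strands of RefSeq promoter windows (GRCh38.p14, 250 bases before to 50 bases after the annotated start). Windows were found for 33 of the 39 genes, and not for DARS, LARS, VARS, YARS, AARS2 and VARS2. The letters occurred in 8 of the 33 (24.2%), against 1217 of the 27305 genes with a window (4.46%). They stood in 7 of 10 windows of the cytosolic synthetases known as ATF4 targets, in 0 of 6 windows of the other cytosolic synthetases, and in 1 of 14 windows of the mitochondrial enzymes, that of YARS2. The matches follow, each read 5′ to 3′ on the strand that carries the element, with the match in capitals and its flanks in lower case.
AARS, chr16:70289675-70289704, plus strand: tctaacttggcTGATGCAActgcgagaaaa
CARS, chr11:3057407-3057436, plus strand: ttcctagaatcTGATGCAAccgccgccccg
GARS, chr7:30594834-30594863, minus strand: ggctcggagcaTGATGAAAtcgccgcgtaa
IARS, chr9:92293692-92293721, plus strand: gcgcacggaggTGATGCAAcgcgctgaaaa
MARS, chr12:57488053-57488082, minus strand: gaatccctcgcTGATGCAAccggaaccggc
NARS, chr18:57621804-57621833, minus strand: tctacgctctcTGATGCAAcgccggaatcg
TARS, chr5:33440956-33440985, minus strand: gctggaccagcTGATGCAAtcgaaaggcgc
YARS2, chr12:32756076-32756105, minus strand: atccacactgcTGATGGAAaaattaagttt
ASNS, chr7:97872458-97872487, minus strand: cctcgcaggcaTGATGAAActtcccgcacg

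ASNS, asparagine synthetase, is no member and is printed as the gene on which this element is best known. The 6 cytosolic matches other than GARS share the 8 letters TGATGCAA, while GARS and ASNS have TGATGAAA. Counted from the annotated start of transcription, most members had their match close to it, from positions -33 to -26 in GARS to positions 15 to 22 in NARS. AARS and YARS2 had theirs further upstream, at -187 to -180 and at -197 to -190. A match describes the letters in a window and does not show binding.

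Levels between genes were compared as cpm per kb of the canonical transcript in GENCODE v44. The cytosolic genes were the more abundant ones, with a median of 104 cpm per kb in sgCtrl and 100.2 in sgN6AMT1, against 16.4 and 18.9 for the mitochondrial genes. Among the cytosolic genes, TARS (threonine) had the highest level in sgCtrl with 267 ± 38.8 cpm per kb (SD, n = 3 here and below). KARS (lysine) followed with 244 ± 29.2 and GARS (glycine) with 196 ± 32.0. TARS and KARS differed by less than their spread. The lowest were FARSB, the beta subunit of phenylalanyl-tRNA synthetase, with 26.9 ± 2.80, the scaffold protein AIMP1 with 30.0 ± 4.67 and CARS (cysteine) with 35.5 ± 5.37. FARSB and its partner FARSA form 1 enzyme, yet FARSA stood at 111 ± 24.7 cpm per kb; the canonical transcript of FARSB, with 6761 bases, is the longest among the 39 genes and enters this scale. IARS2 (isoleucine) led the mitochondrial genes with 103 ± 6.53 cpm per kb, well above RARS2 (arginine) with 38.8 ± 2.41 and NARS2 (asparagine) with 28.04 ± 5.22. PARS2 (proline) was lowest with 2.50 ± 1.73, and EARS2 (glutamate) with 4.94 ± 2.45 and MARS2 (methionine) with 6.60 ± 2.00 did not differ from each other beyond their spread.

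**Figure D1:**
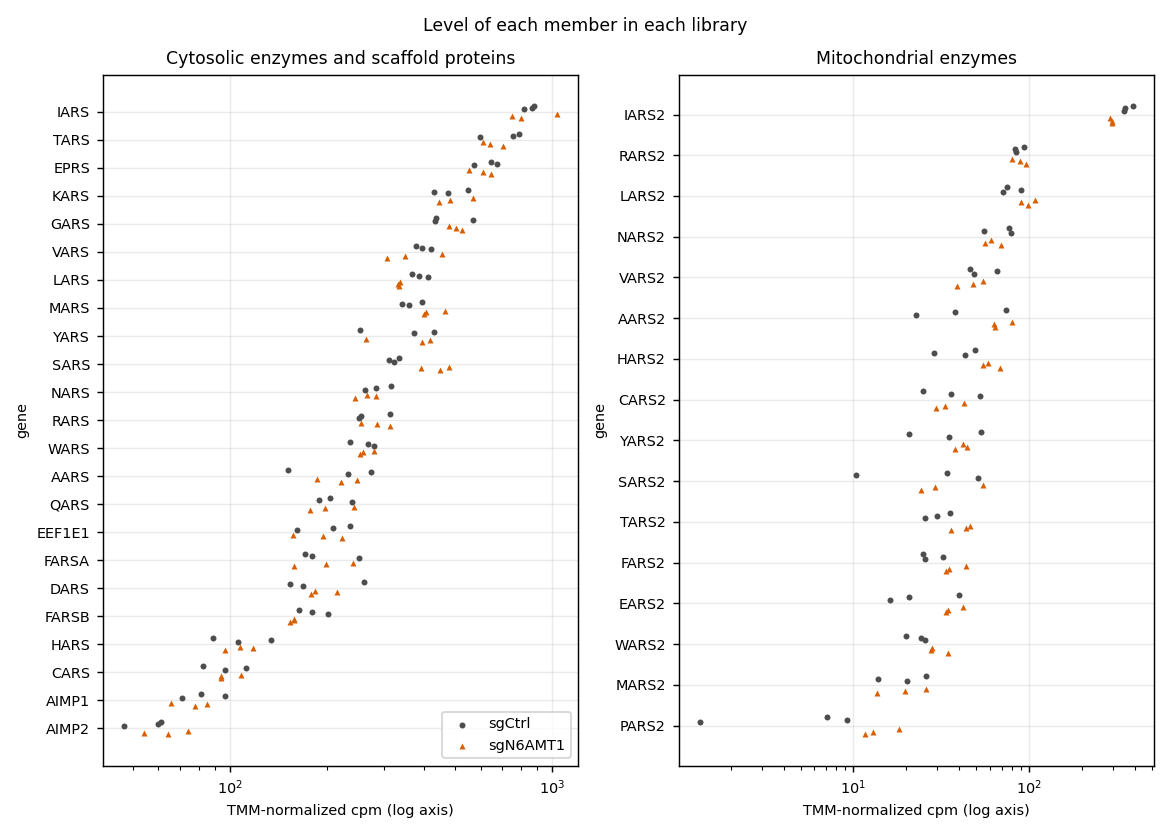
TMM-normalized cpm of each gene (log axis) in each sgCtrl library (circles) and sgN6AMT1 library (triangles), with genes ordered by their sgCtrl mean. Circles and triangles interleave for most cytosolic genes, SARS is the cytosolic gene with triangles clearly to the right, and IARS2 stands apart from the other mitochondrial genes by its level.

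None of the 39 genes was differentially expressed between sgN6AMT1 and sgCtrl. All 39 had enough counts to be tested among 8324 genes with the quasi-likelihood test of edgeR, in which a gene was called when its p, adjusted by the Benjamini-Hochberg procedure over the whole table, fell under 0.05. The test called 820 genes (9.85%). With DESeq2 the count of members was also 0. At an unadjusted p under 0.05, 5 of the 39 passed, where 26.2% of all tested genes did. SARS, HARS2, AARS2 and PARS2 were the 4 with higher values (13.2% of all tested genes) and IARS2 the 1 with lower values. The 3 values of one group did not overlap the 3 of the other for 10 of the 39 genes, or 25.6%, near the 29.2% of all tested genes. Of these, 7 were higher in sgN6AMT1 (15.1% of all tested genes) and 3 were lower (14.1%). PARS2, among the 4 and the 7, had enough counts to be tested only through its sgN6AMT1 libraries. The log2 fold changes were positive for 23 and negative for 16 genes, with a median of 0.02, beside 0.01 over all tested genes. The p-values measure the spread between libraries, and since these are cell pools, fewer cells with a transcript and less of it per cell cannot be told apart.

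The cytosolic genes stayed close to their control level. Their log2 fold changes ran from -0.21 to 0.44 with a median of -0.0022, 11 being positive and 12 negative, and 18 of the 23 lay between -0.15 and 0.15. The 95% interval of the log2 fold change lay within -1 to 1 for each of the 23 genes and held 0 for 22, so a doubling lay outside every one of these intervals. Standard errors (SE) were 0.14 to 0.21. Summed over the 23 genes, the level was 7371 ± 202 cpm in sgCtrl and 7378 ± 176 cpm in sgN6AMT1.

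SARS, which charges tRNA with serine and also provides the serine that becomes selenocysteine, had the highest change among the cytosolic genes. It measured 324, 313 and 336 cpm in sgCtrl and 448, 391 and 480.5 cpm in sgN6AMT1. Each sgN6AMT1 library lay above each sgCtrl library. The log2 fold change was 0.44 (SE 0.14, 95% interval 0.14 to 0.74), with an adjusted p of 0.0566 in edgeR that missed the threshold. The call turned with the processing, since the edgeR adjusted p was 0.0439 under a stricter filter (10 counts or more in all 6 libraries) and 0.224 without sgCtrl replicate 2. Once trends with the GC content and length of transcripts had been taken out of the libraries, the log2 fold change was 0.28 (adjusted p = 0.148).

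MARS, the methionine enzyme that also charges the initiator tRNA, was the other cytosolic gene whose sgN6AMT1 values lay above all control values. It had 360.1, 341 and 396 cpm in sgCtrl and 401, 407 and 467 cpm in sgN6AMT1, and the gap between the groups was narrow. Its log2 fold change was 0.22 (SE 0.14, edgeR adjusted p = 0.348). AIMP2, a scaffold protein, had 47.0, 60.0 and 61.3 cpm in sgCtrl and 64.3, 54.2 and 74.3 cpm in sgN6AMT1, with overlap and a log2 fold change of 0.19 (SE 0.21). GARS, the next in order, had 433, 569 and 435 cpm against 524, 505 and 479.7 cpm, and all sgN6AMT1 values fell inside the range of the controls (log2 fold change 0.07, SE 0.15).

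LARS (leucine), which also serves as a leucine sensor for mTORC1, and FARSB were at the other end. LARS measured 413, 386 and 368 cpm in sgCtrl and 335, 333 and 339 cpm in sgN6AMT1. The sgN6AMT1 libraries were nearly equal and lay below every control, with a log2 fold change of -0.21 (SE 0.14, edgeR adjusted p = 0.341). FARSB had 202, 180.0 and 164 cpm in sgCtrl and 154, 158 and 159 cpm in sgN6AMT1, again without overlap, and also a log2 fold change of -0.21 (SE 0.15, edgeR adjusted p = 0.404). Its partner FARSA overlapped between the groups, with 253, 180.0 and 171 cpm in sgCtrl and 158, 198 and 242 cpm in sgN6AMT1. TARS, the most abundant per kb, had 597, 756 and 791 cpm in sgCtrl and 704, 644 and 612 cpm in sgN6AMT1, so that the spread among controls exceeded the difference (log2 fold change -0.13, SE 0.15). AIMP1 had 71.2, 96.9 and 81.3 cpm against 78.0, 85.2 and 65.8 cpm, with the same log2 fold change of -0.13 (SE 0.19) and overlap. KARS and CARS, named for their place in the order of levels, overlapped as well: KARS had 477, 431 and 547 cpm in sgCtrl and 446, 482 and 568 cpm in sgN6AMT1, and CARS had 96.8, 112 and 82.5 cpm in sgCtrl and 93.8, 93.6 and 108 cpm in sgN6AMT1.

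**Figure D2:**
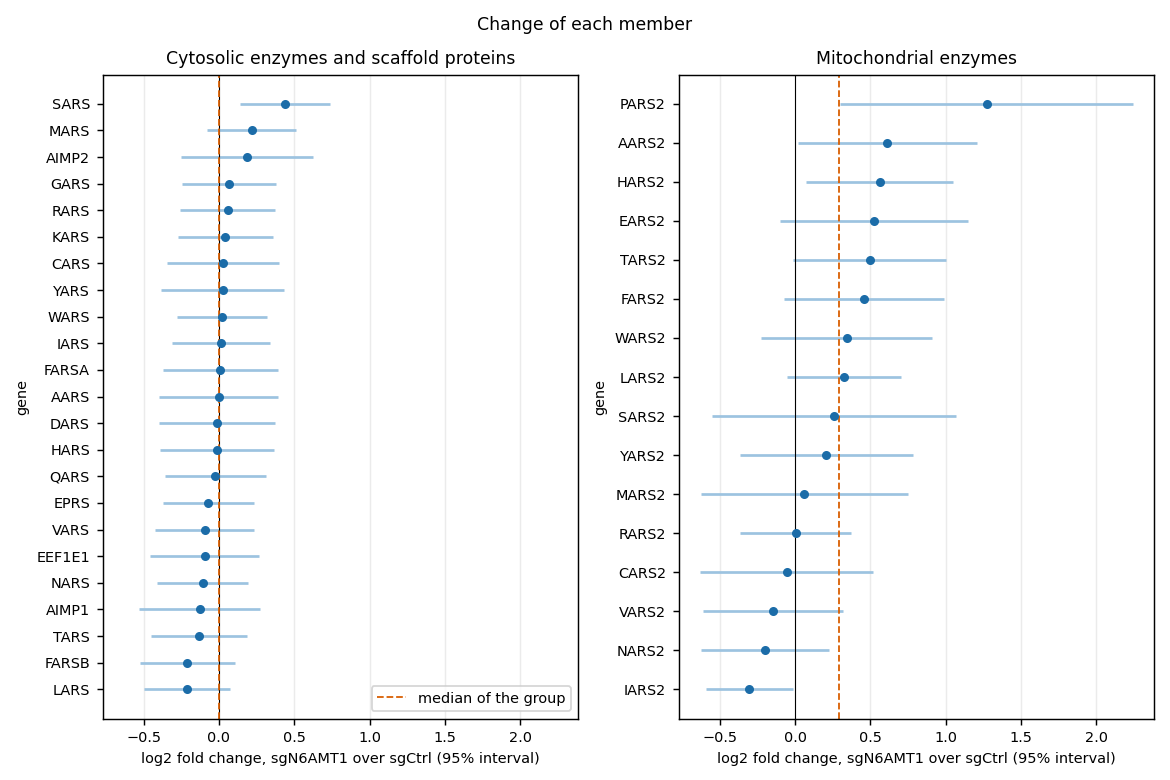
Log2 fold change of each gene, sgN6AMT1 over sgCtrl (points), with its 95% interval from the edgeR fit (bars) and the median of each group of genes (dashed line). The cytosolic points crowd around 0 with short intervals, while the mitochondrial points spread from -0.31 to 1.27 around a median of 0.29 with intervals that are longest for PARS2.

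The cytosolic genes were also divided by what is known of their regulation or assembly, and the lists were not tested against each other. The 12 synthetases known as ATF4 targets had 7 positive and 5 negative log2 fold changes, from -0.21 to 0.44 (SARS) with a median of 0.02. The groups did not overlap for 3 of them (25%, under the 29.2% of all tested genes). The 8 other synthetase subunits had 3 positive and 5 negative values, from -0.21 to 0.06 with a median of -0.01, and 1 of them did not overlap (12.5%, also under 29.2%). The 11 genes of the multisynthetase complex had a median of -0.01, with MARS higher and LARS lower without overlap (18.2%, under 29.2%), and 0 of them were called. The 7 cytosolic genes whose promoter windows are printed above ran from -0.13 in TARS to 0.22 in MARS with a median of 0.01, again with 0 called.

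The mitochondrial synthetases lay mostly above 0, but none passed the test. Their log2 fold changes ran from -0.31 to 1.27 around a median of 0.29, and 12 of the 16 were above 0 and 4 below. The groups did not overlap for 6 of the 16 (37.5%, against 29.2% of all tested genes), with 5 higher (15.1% of all tested genes) and 1 lower (14.1%) in sgN6AMT1. PARS2 is among the 5, and it was tested only because of its sgN6AMT1 counts. The median over the 16 genes of log2(cpm + 1), relative to the sgCtrl mean of each gene, was -0.05, -0.05 and 0.18 in the controls and 0.20, 0.22 and 0.43 in the sgN6AMT1 libraries, so sgCtrl replicate 3 lay just under the lowest sgN6AMT1 library. The summed level hardly moved, from 977 ± 82.9 to 1014 ± 52.9 cpm, since IARS2, the most abundant of them, was lower. These genes are less abundant than the cytosolic ones and their SE were larger, 0.14 to 0.46, and 10 of the 16 intervals lay within -1 to 1. The median of the log2 fold changes was 0.18 with the GC and length trends removed and 0.19 without sgCtrl replicate 2.

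**Figure D3:**
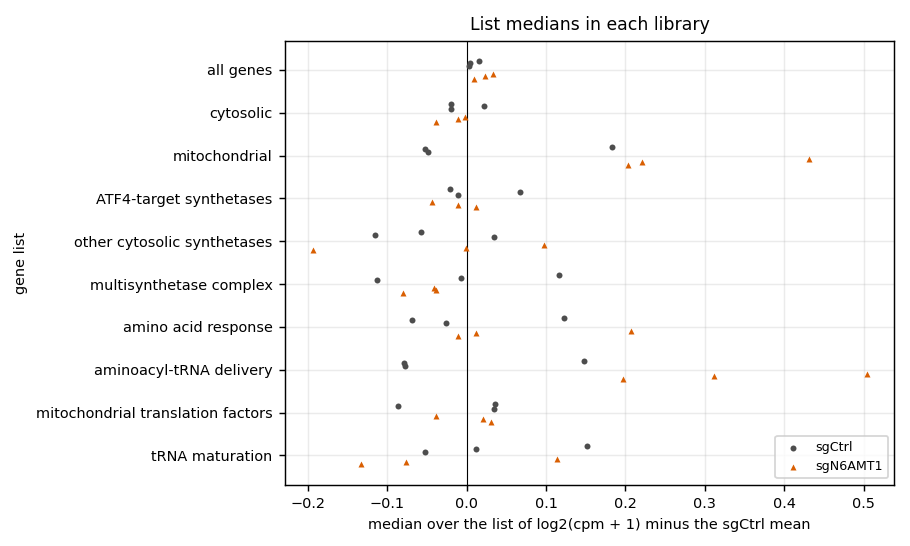
Median over each list of genes of log2(cpm + 1) minus the sgCtrl mean of the gene, in each sgCtrl library (circles) and sgN6AMT1 library (triangles). The cytosolic genes lie near 0 in each library, the triangles of the mitochondrial genes run from 0.20 to 0.43 beside a control at 0.18, and the triangles of the list of aminoacyl-tRNA delivery lie to the right of its circles.

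IARS2 was the mitochondrial gene with the lowest change. It measured 348, 353 and 390.2 cpm in sgCtrl and 296, 299 and 288 cpm in sgN6AMT1. Each sgN6AMT1 library lay below each control. The log2 fold change was -0.31 (SE 0.14, 95% interval -0.59 to -0.02) with an edgeR adjusted p of 0.165. The cytosolic enzyme for the same amino acid, IARS, had the highest cpm of the 39 genes, with 819.7, 868 and 877 cpm in sgCtrl and 804, 751 and 1033 cpm in sgN6AMT1, and overlapped.

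PARS2, which charges mitochondrial tRNA with proline, had the highest log2 fold change and the fewest counts. Its counts were 1, 8 and 6 for the controls and 11, 71 and 71 for sgN6AMT1, which is 1.34, 9.23 and 7.07 cpm against 11.6, 13.0 and 18.3 cpm. Each sgN6AMT1 value lay above each control. PARS2 passed the filter on low counts only through the sgN6AMT1 libraries. Its lack of overlap and its rank were therefore partly fixed by the filter. The single count of sgCtrl replicate 1 has a 95% Wilson interval of 0.24 to 7.63 cpm of total counts, which covers counting error only. The log2 fold change was 1.27 (SE 0.46, 95% interval 0.30 to 2.24, edgeR adjusted p = 0.0871), and 0.84 without that library. SARS2 (serine) was the other gene with under 10 counts in a library, its counts being 38, 9 and 29 for the controls and 23, 159 and 213 for sgN6AMT1. At 51.1, 10.4 and 34.2 cpm against 24.2, 29.0 and 54.8 cpm, its replicates spread widely in both groups and overlapped.

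HARS2 (histidine) had 43.0, 28.8 and 49.5 cpm in sgCtrl and 68.5, 54.9 and 58.1 cpm in sgN6AMT1, without overlap. Its log2 fold change was 0.56 (SE 0.23, edgeR adjusted p = 0.130), and 0.35 without sgCtrl replicate 2. AARS2 (alanine) had 22.8, 38.1 and 74.3 cpm in sgCtrl and 64.3, 63.0 and 80.5 cpm in sgN6AMT1, and EARS2 had 16.1, 20.8 and 40.1 cpm against 33.7, 34.7 and 42.2 cpm. In both genes sgCtrl replicate 3 stood at the level of the sgN6AMT1 libraries and the other controls below them. The log2 fold change of AARS2 was 0.61 (SE 0.28, edgeR adjusted p = 0.175) and became 1.17 (adjusted p = 0.0219) without sgCtrl replicate 3, while it was 0.31 without sgCtrl replicate 1. That of EARS2 was 0.52 (SE 0.30, edgeR adjusted p = 0.275), with 0.9993 (adjusted p = 0.0583) without sgCtrl replicate 3 and 0.29 without sgCtrl replicate 1.

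The groups also stood apart for TARS2 (threonine), FARS2 (phenylalanine) and WARS2 (tryptophan), which were singled out for this after their values were seen. TARS2 had 25.5, 30.0 and 35.4 cpm in sgCtrl and 35.8, 43.99 and 46.3 cpm in sgN6AMT1, with a log2 fold change of 0.49 (SE 0.24). FARS2 had 25.5, 32.3 and 24.8 cpm against 33.7, 35.0 and 43.7 cpm, with 0.46 (SE 0.25). WARS2 had 25.5, 24.2 and 20.0 cpm against 34.8, 27.7 and 28.02 cpm, with 0.34 (SE 0.27). The nearest values of the groups were close in each of these genes, and the edgeR adjusted p of the 3 lay between 0.204 and 0.454.

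The 3 further genes with negative values overlapped between the groups. NARS2 had 79.3, 55.4 and 76.6 cpm in sgCtrl and 69.5, 56.0 and 60.7 cpm in sgN6AMT1 (log2 fold change -0.20, SE 0.20). VARS2 (valine) had 48.4, 65.8 and 46.0 cpm against 38.99, 47.8 and 55.0 cpm (-0.15, SE 0.22). CARS2 (cysteine) had 52.4, 35.8 and 24.8 cpm against 29.5, 33.0 and 42.9 cpm (-0.05, SE 0.27), and its sign turned when single libraries were left out. Of the genes named for their levels, RARS2 measured 84.7, 83.1 and 93.1 cpm in sgCtrl and 95.9, 88.3 and 79.7 cpm in sgN6AMT1, and MARS2 20.2, 13.8 and 25.9 cpm against 13.7, 19.7 and 26.0 cpm. YARS2, whose promoter window holds the element, had 34.9, 20.8 and 53.1 cpm in sgCtrl and 37.9, 44.2 and 41.9 cpm in sgN6AMT1, inside the range of its controls. LARS2 (leucine) had 71.2, 90.0 and 75.4 cpm against 99.1, 89.8 and 108 cpm, where a single pair of values crossed.

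For 16 pairs of enzymes that charge the same amino acid, the ratio of cytosolic to mitochondrial transcript per kb was taken within each library, where any scaling of the library cancels. The cytosolic transcript was by its mean the more abundant in 16 of 16 pairs in both groups, from a mean log2 ratio of 0.85 for CARS to CARS2 and 0.89 for IARS to IARS2 up to 6.10 for EPRS to PARS2 in sgCtrl. The phenylalanine pair was taken with FARSA. With FARSB in its place the mean log2 ratio to FARS2 was lower than that of any of the 16 pairs, at 0.72 in sgCtrl and 0.06 in sgN6AMT1. The single values were 0.97, 0.47 and 0.72 in sgCtrl and, without overlap, 0.18, 0.16 and -0.15 in sgN6AMT1. In sgCtrl replicate 1 the CARS to CARS2 ratio (0.31) and the IARS to IARS2 ratio (0.89) were lower still. Over the 16 pairs, the difference of the log2 ratio between the groups was negative in 9 and positive in 7. It was lower without overlap in 4 pairs. LARS to LARS2 went from 2.54, 2.11 and 2.29 in sgCtrl to 1.76, 1.90 and 1.65 in sgN6AMT1, TARS to TARS2 from 4.58, 4.68 and 4.51 to 4.33, 3.90 and 3.75, and WARS to WARS2 from 3.53, 3.55 and 3.64 to 2.95, 3.30 and 3.40. EPRS to PARS2, which rests on the few counts of PARS2, went from 7.69, 5.15 and 5.47 to 4.75, 4.52 and 3.87. IARS to IARS2 was the 1 pair with a higher ratio without overlap, from 0.89, 0.95 and 0.82 to 1.10, 0.98 and 1.496. RARS to RARS2 had a mean of 1.73 ± 0.09 in sgCtrl and 1.78 ± 0.02 in sgN6AMT1. EPRS enters 2 of the 16 pairs, and no share without overlap was taken over other pairs of genes. These ratios are descriptions without a test.

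**Figure D4:**
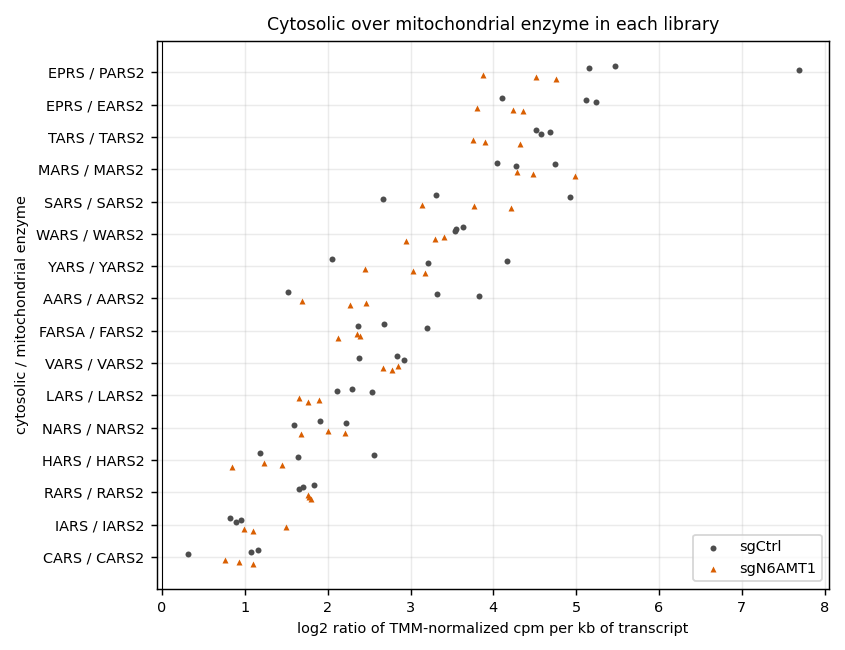
Log2 ratio of the cytosolic to the mitochondrial transcript per kb for the same amino acid, in each sgCtrl library (circles) and sgN6AMT1 library (triangles). The groups overlap in 11 of the 16 pairs, and the triangles lie left of the circles for the LARS, TARS, WARS and EPRS to PARS2 pairs and right of them for the IARS pair.

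The amino acid response was followed outside the synthetases with a list of 32 genes, of which 23 were tested. Their log2 fold changes had a median of 0.11, with 13 positive and 10 negative, and 2 were called, both higher, a share near the 9.85% of all tested genes. At an unadjusted p under 0.05, 6 were higher and 0 lower (26.1%, against 26.2% of all tested genes in either direction and 13.2% higher). The groups did not overlap for 8 (34.8%, against 29.2% in either direction), 7 of them higher (15.1% of all tested genes). SLC3A2, the heavy chain shared by several amino acid transporters, rose from 160, 136 and 183 cpm in sgCtrl to 248, 314 and 437 cpm in sgN6AMT1 (log2 fold change 1.07, SE 0.19, edgeR adjusted p = 0.00238). TRIB3, a pseudokinase induced by ATF4, rose from 53.8, 25.4 and 29.5 cpm to 44.3, 60.8 and 101 cpm (0.99, SE 0.30, edgeR adjusted p = 0.0463), with overlap of 1 control. ATF4 itself had 285, 299.96 and 356 cpm against 391, 403 and 379 cpm, without overlap (0.32, SE 0.14, edgeR adjusted p = 0.165). ASNS, whose promoter window is printed above, had 156, 192 and 202 cpm in sgCtrl and 143, 168 and 145 cpm in sgN6AMT1 (-0.26, SE 0.16, edgeR adjusted p = 0.309), so that its values lay on the other side of 0 from those of SLC3A2. The promoter window of SLC3A2 also holds a match, TGATGTAA, at positions 38 to 45. Among the genes outside the members that were looked up, only ASNS and SLC3A2 had a match. None was found for TRIB3, the other called gene of this list, or for ATF4.

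Among 9 genes of the sensing of uncharged tRNA and of the phosphorylation of eIF2alpha, 0 were called and the median log2 fold change was -0.02. At an unadjusted p under 0.05, 3 of the 9 were lower and 0 higher (33.3%, against 26.2% of all tested genes in either direction). Of all 8324 tested genes, 1087 were lower at this p. The same 3 did not overlap between the groups (33.3%, against 29.2% in either direction and 14.1% lower). They were IMPACT, a regulator of GCN2, with -0.80 (SE 0.35, edgeR adjusted p = 0.156), EIF2AK2, the kinase PKR, with -0.73 (SE 0.26, edgeR adjusted p = 0.0832) and EIF2S1, which encodes eIF2alpha, with -0.33 (SE 0.15, edgeR adjusted p = 0.158), all 3 named after their values were seen. The 5 genes of the factors that carry charged tRNA to the cytosolic ribosome had 5 positive values with a median of 0.34, and 0 were called. In this list, 3 were higher at an unadjusted p under 0.05 (60%, against 13.2% of all tested genes). The same 3 were higher without overlap (60%, against 15.1%). Among these, EEF1G, the gamma subunit of the exchange factor, measured 2639, 2653 and 3085 cpm in sgCtrl and 3816, 3833 and 4070.4 cpm in sgN6AMT1, without overlap (log2 fold change 0.48, SE 0.16, edgeR adjusted p = 0.0555). Of 14 mitochondrial translation factors and partners in tRNA charging, 0 were called and the median was 0.05. The amidotransferase genes had log2 fold changes of 0.25 (QRSL1), 0.24 (GATB) and 0.08 (GATC), and MTFMT, which formylates the initiator methionyl-tRNA, 0.04, each with an SE of 0.21 to 0.30. Of 28 genes of tRNA maturation, export and proofreading, 22 were tested and 2 were called, near the 9.85% of all tested genes. SSB, the La protein that binds new RNA polymerase III transcripts, fell from 818, 839 and 780.4 cpm to 567, 613 and 294 cpm (-0.73, SE 0.21, edgeR adjusted p = 0.0312). RPP25, a subunit of RNase P but not of the protein-only mitochondrial RNase P of the paper, was the other. RPP25 had 6.72, 2.31 and 4.72 cpm in sgCtrl and 13.7, 13.5 and 20.3 cpm in sgN6AMT1 (1.83, SE 0.46, edgeR adjusted p = 0.0178). Its counts were only 5, 2 and 4 in sgCtrl, against 13, 74 and 79 in sgN6AMT1. RPP25 passed the filter on low counts only through the sgN6AMT1 libraries, so its call was partly fixed by the filter.

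Fold changes moved with the GC content of the transcript over all genes, which touches the values above. The median log2 fold change was -0.14 in the fifth of tested genes with the lowest GC content and 0.19 in the fifth with the highest. The correlation between log2 fold change and GC content was 0.23 across 8161 genes, 0.42 across the 23 cytosolic genes and 0.28 across the 16 mitochondrial genes, all from the same 6 libraries and with genes that are not independent replicates. The median GC content was 47.3% in the cytosolic and 50.4% in the mitochondrial genes. With the trends of GC content and length removed, the median log2 fold changes were -0.06 and 0.18. SARS and MARS lie at 52.7% and 53.2% GC, and LARS and FARSB at 41.4% and 40.0%. With the trends removed, the log2 fold change was 0.28 for SARS, 0.08 for MARS, -0.13 for LARS and -0.08 for FARSB.

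**Figure D5:**
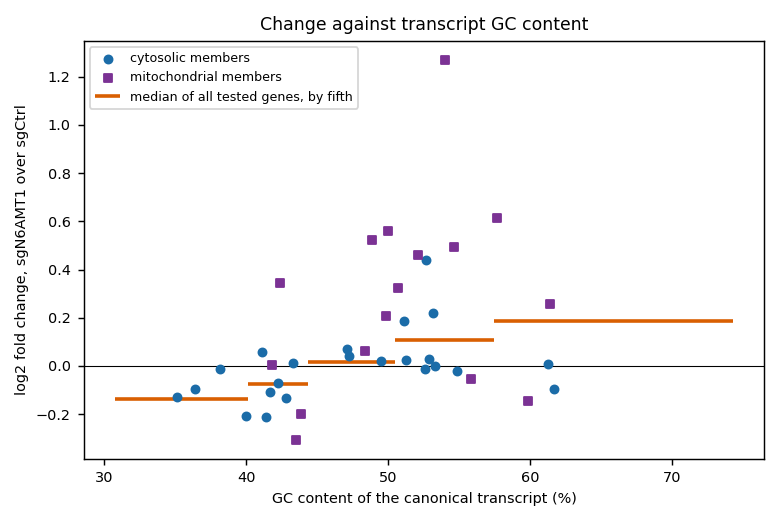
Log2 fold change (sgN6AMT1 over sgCtrl) against the GC content of the canonical transcript in percent, for the cytosolic genes (circles), the mitochondrial genes (squares) and, as horizontal lines, the median of all tested genes in bins of GC content. The line medians climb from -0.14 to 0.19, the cytosolic genes stay near them, and the mitochondrial genes scatter more widely.

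Several members share sequence with a neighbouring gene, and whether the counting used the strand is not given in the sources used here. In GENCODE v44, 15 of the 39 genes overlap another protein-coding gene, 13 of them on the opposite strand and 5 on the same strand. HARS (chromosome 5, 140673035 to 140691537, minus strand) and HARS2 (140691430 to 140699305, plus strand) share 108 bases where their 5′ ends meet. MARS (chromosome 12, 57475445 to 57517569, plus strand) overlaps DDIT3, itself an ATF4 target, on 982 bases of the opposite strand. MARS also shares 13370 bases with ARHGAP9 on the opposite strand, and HARS2 shares 626 bases with ZMAT2 on its own strand. EEF1E1 shares its strand with a readthrough transcript to BLOC1S5, and SARS2 shares 15360 bases of its strand with ENSG00000269547. YARS2 lies across DNM1L on the opposite strand, and AARS2 across TMEM151B and, over 14617 bases, ENSG00000272442. SARS (chromosome 1, 109213918 to 109238182, plus strand), IARS2 (chromosome 1, 220094132 to 220148041, plus strand) and PARS2 (chromosome 1, 54756898 to 54764523, minus strand) overlap none.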

How the data were processed

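RNA-Seq libraries of K562 cells (3 sgCtrl, 3 sgN6AMT1) were grouped by their labels. The authors trimmed reads with cutadapt, mapped them with HISAT2 to GRCh38 (release 84 annotation) and deposited raw counts per gene. The counting tool, the use of strand and the treatment of multiply mapped reads are not given in the sources used here. The labels give selection with 10 mg/ml puromycin, and the methods of the paper a lower concentration. Total counts were 742470 to 5526904 per library, and 3 counts correspond to 0.548 to 4.03 normalized cpm.

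From the deposited counts, low genes were removed (filterByExpr), TMM factors computed and the quasi-likelihood test run (glmQLFit, glmQLFTest of edgeR 4.0.16, R 4.3.3), with no covariate, sgN6AMT1 against sgCtrl, with Benjamini-Hochberg adjustment over 8324 genes (common biological coefficient of variation 0.16). Of 19330 symbols, 18801 matched GENCODE v44, 817 through an older symbol. Libraries of a group differed by more than sampling noise (chi-square per degree of freedom 2.04 to 11.9). The correction for GC content and length removed a smooth trend (mgcv 1.9.3) from each library. DESeq2 1.42.0, other normalizations and filters, a replicate block, thinning of sgN6AMT1 replicates 2 and 3 to 858710 counts and each library left out were the alternatives. 

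Values per library are given for members past the threshold, the 4 highest and 4 lowest log2 fold changes and the 3 highest and 3 lowest levels per kb in the cytosolic and the mitochondrial genes, and members with under 10 counts in a library. Outside the members, called genes of the lists and ATF4, ASNS, EEF1G, QRSL1, GATB, GATC, MTFMT and N6AMT1 are named. IMPACT, EIF2AK2, EIF2S1, WARS2, FARS2, TARS2, LARS2, YARS2, IARS and FARSA were added after their values were seen. The members and lists were chosen with earlier results of these data known.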

Additional observations from a re-analysis of the deposited data

How the results depend on the processing

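In 13 of 16 refits no member was called. Counted as above, 1 member was called with at least 10 counts in every library (SARS, log2 fold change 0.47, adjusted p = 0.0439), 1 with the replicate block (SARS, 0.44, adjusted p = 0.0308), both cytosolic and higher, and 1 without sgCtrl replicate 3 (AARS2, mitochondrial and higher), so that leaving out single libraries gave 0 to 1 members, 0 to 1 of them mitochondrial and higher. At an unadjusted p under 0.05 there were 5 members, 1 cytosolic higher, 3 mitochondrial higher and 1 mitochondrial lower. The median of the cytosolic genes was -0.0252 with DESeq2, 0.0233 with at least 10 counts in every library, -0.0628 with the GC content and length offsets, -0.0579 with these offsets and the replicate block, and -0.0511 to 0.0329 when single libraries were left out. The median of the mitochondrial genes stayed positive, from 0.18 with the offsets to 0.40 without sgN6AMT1 replicate 2. Of all 39 members, only 17 kept their sign in every refit that included them. The largest main log2 fold change that turned was that of SARS2 (0.26, with -0.19 to 0.75 over the refits). Single values were followed for the 16 members with the highest and lowest log2 fold changes, and for TARS2, FARS2 and WARS2. Among these, signs turned for AIMP1 with the deep libraries thinned (0.0015). With single libraries left out they turned for GARS (-0.0027 without sgCtrl replicate 1, highest 0.20) and VARS2 (0.0256 without sgCtrl replicate 2, lowest -0.26). They also turned for CARS2 (0.24 without sgCtrl replicate 1, 0.02 and 0.01 without sgN6AMT1 replicates 1 and 2, lowest -0.29). The cause was not tested. Of 300 values of these followed members under the alternatives, 291 kept their direction and side of the threshold. The followed members were picked for high or low log2 fold changes or for groups without overlap. Their share of kept directions was therefore partly fixed by that choice and does not describe the 39 members. Without a filter on low counts the median log2 fold change of all genes was 0.12.

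Libraries that share a replicate number deviated from their group means with correlations of -0.0005, 0.08 and 0.19, so the numbers were not taken to pair them, and not every library correlated best with its own number. With the replicate block, 1195 genes were called in all. Counts limit the mitochondrial genes most, and PARS2 could not be fitted with at least 10 counts in every library, after thinning, or without sgN6AMT1 replicate 2 or 3.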

Other observations

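TARSL2, a second cytosolic threonyl-tRNA synthetase that is in the counts but not among the 39 genes described above, had 29.6, 34.6 and 30.7 cpm in sgCtrl and 15.8, 26.1 and 26.5 cpm in sgN6AMT1. Each sgN6AMT1 library lay below each control, with a log2 fold change of -0.40 (SE 0.27, edgeR adjusted p = 0.377) that did not pass the threshold.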
